A study of Saccharomyces cerevisiae with 12 samples.

Results

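The genes described here encode the enzymes that turn aspartate into asparagine, homoserine and threonine in Saccharomyces cerevisiae, together with aspartate aminotransferase, which forms aspartate. They were taken by gene symbol as AAT2, HOM3, HOM2, HOM6, THR1, THR4, ASN1 and ASN2. Each had exactly 1 probe set of its own on the Affymetrix Yeast S98 array, so the 8 genes are 8 of the 5656 genes tested and 8 of the 9335 probe sets deposited. The rule that picks them is their function in the pathway and holds no measured value, but the pathway was chosen with earlier results of these data known.

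Transcripts were measured in 4 groups of 3 arrays, each array from its own culture. Both strains were diploid and homozygous for ura3-52: MLY61 was the wild type, and MLY132 carried in addition a G418-marked deletion of both copies of GPA2, the gene of a G protein alpha subunit that acts in nutrient sensing through cAMP. Each strain was sampled in YPM, a rich maltose medium, at an OD600 of 1.0, or after filtration and 2 h at 30 °C in SLAM, a defined medium with 2% maltose and 50 µM ammonium sulfate as its nitrogen source. SLAM against YPM therefore compares a scarce with a rich nitrogen supply together with the other ways in which the media differ and the transfer itself. RNA came from whole cultures, so less transcript per cell and fewer cells holding it cannot be told apart.

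In yeast, cytosolic aspartate aminotransferase (AAT2) moves an amino group from glutamate to oxaloacetate. Asparagine synthetase, present as the isozymes ASN1 and ASN2, then transfers an amide group from glutamine to aspartate. In the other branch aspartate is phosphorylated by aspartate kinase (HOM3), the committed step and one inhibited by threonine. It is then reduced by aspartate semialdehyde dehydrogenase (HOM2) and homoserine dehydrogenase (HOM6). Homoserine stands at a fork: homoserine kinase (THR1) and threonine synthase (THR4) lead to threonine, and acetylation leads to methionine. Many genes of amino acid synthesis are activated by Gcn4 when amino acids are short.

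Of all arrays, 2 stood apart from their groups and bear on the values below. Wild-type SLAM replicate 2 lay between the YPM arrays and the other SLAM arrays on the first principal component of all genes (-10.8, against 19.4 and 28.4 for its group). Deletion YPM replicate 3 lay at -6.17 on that component, against -27.3 and -34.5 for its group. GPA2 read at least 9.70 on every wild-type array and at most 5.60 on every deletion array on the log2 scale, as the strain labels require. Of 16 genes specific to haploid cells or to a mating type, which diploid cells repress, 14 had a mean level below that of the median gene. The exceptions were STE4 and MFA2. Array medians over all probe sets ranged from 7.33 to 7.50.

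The first enzyme, AAT2, showed little movement between groups. Its log2 expression in wild-type cells was 11.35, 11.90 and 11.98 in YPM and 11.36, 11.89 and 11.04 in SLAM. In deletion cells it was 11.69, 11.91 and 11.56 in YPM and 11.75, 11.63 and 10.96 in SLAM. All 4 groups overlapped each other, and the group means spanned only 11.43 to 11.75.

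HOM3, which commits aspartate to the homoserine branch, read 8.39, 8.14 and 8.17 in wild-type YPM and 7.28, 8.26 and 7.39 in wild-type SLAM. Replicate 2 in SLAM thus kept the level seen in YPM while both others were lower. Deletion cells read 8.08, 8.36 and 6.83 in YPM and 6.46, 7.14 and 6.11 in SLAM. These groups overlapped because replicate 3 in YPM read below the highest SLAM array.

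HOM2, the next enzyme, read 10.26, 9.91 and 9.92 in wild-type YPM and 9.24, 10.33 and 9.34 in wild-type SLAM, where replicate 2 was again the high array. Its levels in deletion cells were 9.82, 10.08 and 9.69 in YPM and 9.46, 9.04 and 8.75 in SLAM. The deletion groups did not overlap. HOM6, which makes homoserine, had the smallest spread of the 8 genes over the 12 arrays (SD 0.23). It read 11.83, 12.18 and 12.06 in wild-type YPM, 11.51, 12.01 and 11.68 in wild-type SLAM, 11.61, 12.01 and 11.89 in deletion YPM and 11.65, 11.77 and 11.46 in deletion SLAM. For this gene the order of the means was wild-type YPM, deletion YPM, wild-type SLAM and deletion SLAM, and only the first and the last of these did not overlap.

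THR1, the homoserine kinase gene, had an SD of 0.07 in both wild-type groups, and the deletion groups had SDs of 0.22 (YPM) and 0.15 (SLAM). In wild-type cells it read 11.42, 11.32 and 11.29 in YPM and 10.35, 10.23 and 10.21 in SLAM. In deletion cells it read 11.28, 11.39 and 10.97 in YPM and 9.35, 9.63 and 9.42 in SLAM. The YPM groups overlapped each other, both SLAM groups lay below them, and the deletion SLAM group lay below the wild-type SLAM group.

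THR4, which completes threonine synthesis, read 9.36, 9.58 and 9.57 in wild-type YPM and 8.50, 10.19 and 8.28 in wild-type SLAM. The SLAM value of replicate 2 exceeded every YPM array, and both others were under all of them. In deletion cells THR4 read 9.18, 9.72 and 8.85 in YPM and 7.61, 8.06 and 7.31 in SLAM, with no overlap between these groups or between the strains in SLAM.

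The asparagine synthetase genes differed in how much they varied. ASN1 read 7.39, 7.28 and 7.30 in wild-type YPM, 6.79, 7.52 and 7.49 in wild-type SLAM, 7.31, 7.19 and 6.40 in deletion YPM and 6.11, 6.49 and 6.50 in deletion SLAM. Its deletion SLAM group lay below both wild-type groups and overlapped deletion YPM through replicate 3 of the latter.

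ASN2 had the widest spread of the 8 genes over the arrays (SD 1.55, against 0.49 for ASN1). It read 11.26, 11.82 and 11.83 in wild-type YPM and 9.55, 12.01 and 8.55 in wild-type SLAM. In deletion cells it read 10.90, 11.57 and 10.80 in YPM and 8.02, 8.74 and 8.19 in SLAM. Replicate 2 in wild-type SLAM read higher than any YPM array, and the deletion groups lay far apart. ASN1 and ASN2 encode similar proteins, and whether their probe sets share signal was not tested.

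**Figure D1:**
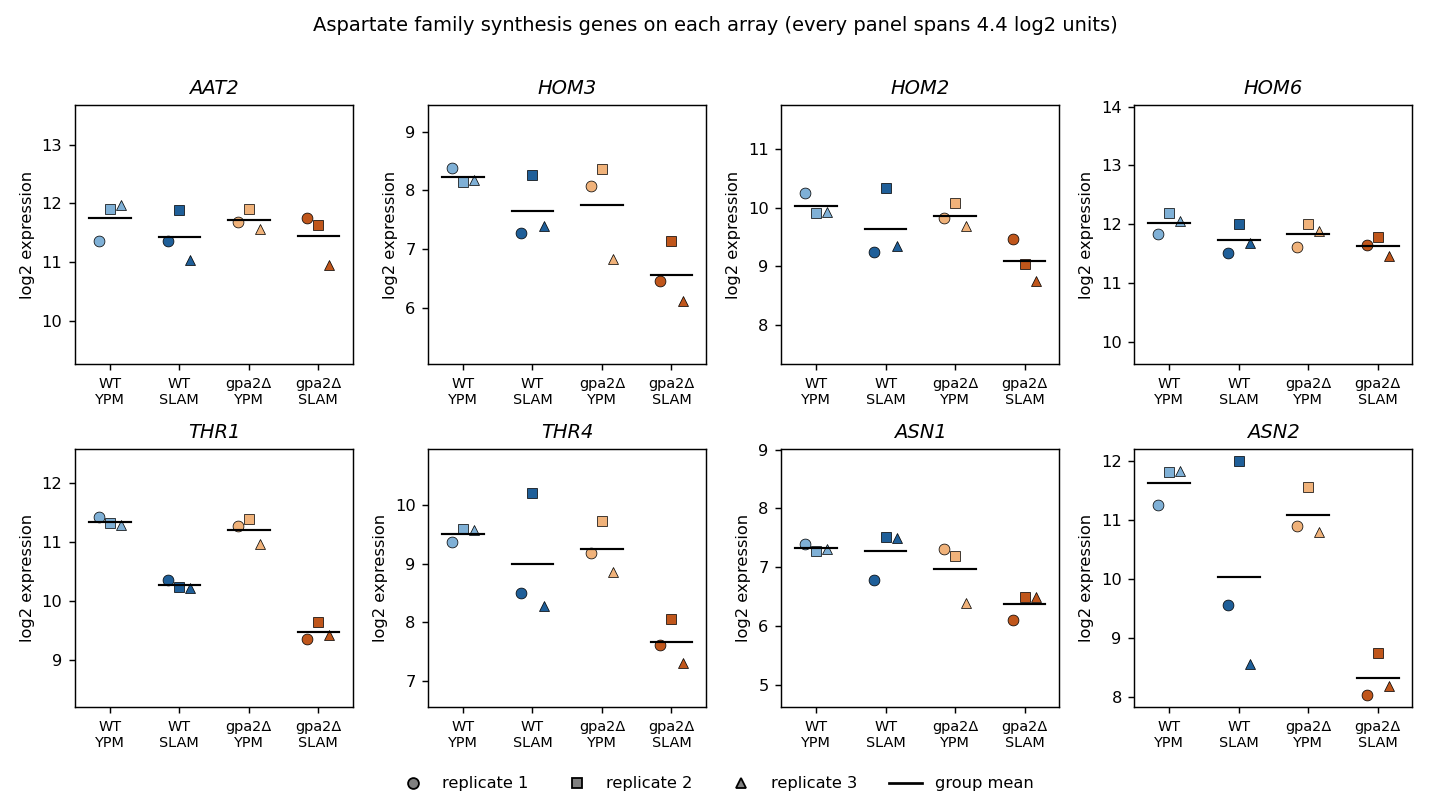
Log2 expression of the 8 genes (vertical axes, each spanning the same range) by strain and medium (horizontal axes), with a symbol for each of 3 replicate arrays and a line at each group mean. THR1 has both SLAM groups below YPM with little scatter, whereas in HOM3, HOM2, THR4 and ASN2 the square of wild-type SLAM replicate 2 stands among or above the YPM arrays.

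In wild-type cells moved to SLAM, THR1 fell and no other gene of the pathway passed the test. THR1 averaged 11.34 ± 0.07 (SD, n = 3) in YPM and 10.27 ± 0.07 in SLAM, a 2.11-fold fall (log2 -1.08, SE 0.19, limma adjusted p = 0.00841). All 8 estimated differences were below 0, with a median log2 difference of -0.45 against -0.05 over all genes. With 1 of 8 genes called lower, the share was to be read against 7.34% of all 5656 genes called lower and 5.23% called higher. THR1 was also the 1 gene whose SLAM arrays all lay below its YPM arrays, as did 20.4% of all genes.

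ASN2 had the largest wild-type difference, but its SLAM arrays scattered over more than their distance from YPM. Its mean was 11.64 ± 0.33 in YPM and 10.04 ± 1.78 in SLAM (log2 -1.60, SE 0.65, adjusted p = 0.116). HOM3 stood at -0.59 (SE 0.40, adjusted p = 0.344), THR4 at -0.51 (SE 0.43, adjusted p = 0.444) and HOM2 at -0.39 (SE 0.30, adjusted p = 0.395). The differences of AAT2, HOM6 and ASN1 were -0.32, -0.29 and -0.06, with standard errors of 0.29, 0.21 and 0.28. Apart from THR1 and ASN2, none of the genes differed by more than 1.5 times its standard error.

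Whether ASN2, THR4 and HOM2 were called in wild-type cells turned on SLAM replicate 2. It was the highest array of its group in 7 of the 8 genes, THR1 being the exception, where 41.3% of all genes had their highest value on that array. Without it, ASN2 (log2 -2.58, adjusted p = 0.00146), THR4 (-1.12, adjusted p = 0.0179) and HOM2 (-0.74, adjusted p = 0.0438) passed beside THR1 (-1.06, adjusted p = 0.00459). HOM3 then stood at -0.90 with adjusted p = 0.134. Leaving out the highest array of a group lowers its mean in any case, so the added calls are no separate evidence. Over all genes, the calls of this comparison went from 12.6% to 25.0% without that array, and to 1.89% without wild-type SLAM replicate 3. THR1 passed with any 1 of the 12 arrays left out, its adjusted p lying between 0.00459 and 0.0449. An array outside the groups compared does not enter the difference. Leaving it out changes only the estimate of the spread and the adjustment.

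The same array differed from its group in other gene sets. Against the wild-type YPM mean, 14 nitrogen catabolite repression targets averaged 1.13 higher on it, and 2.70 and 3.36 higher on replicates 1 and 3. For 16 genes of sulfate assimilation and methionine synthesis the averages were 2.81 on it and 0.45 and 1.43 on the others. That list was also highest on replicate 2 in deletion SLAM, at 2.71 against 0.85 and 0.02. The 8 genes of the aspartate family averaged 0.08 on it, against -0.91 and -0.98. What part these differences have in the values of the pathway was not tested.

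**Figure D2:**
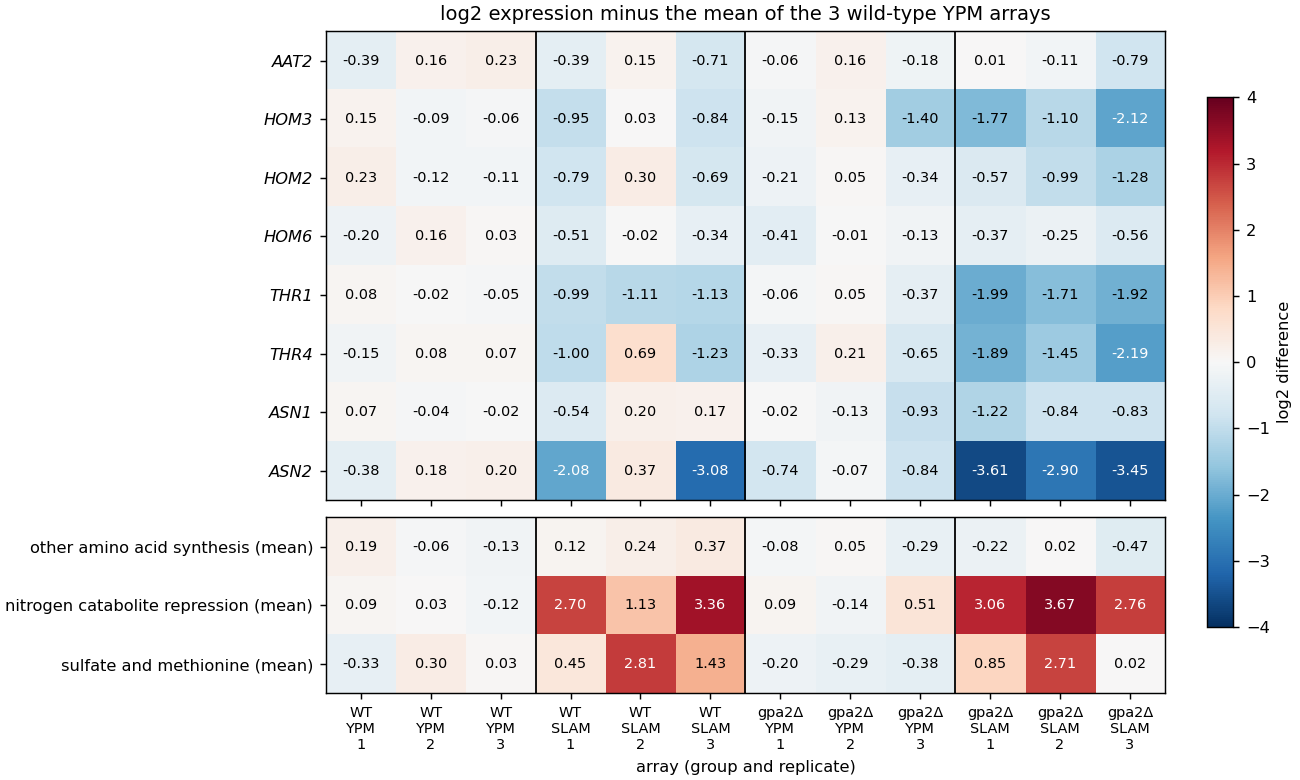
Log2 expression on each of 12 arrays (columns) minus the wild-type YPM mean, for the 8 genes and, as means, for 3 other gene lists (rows), with the value in each cell. The wild-type SLAM replicate 2 column is near or above 0 for 7 genes and at -1.11 for THR1, and the deletion YPM replicate 3 column is low for HOM3 (-1.40), ASN1 (-0.93) and ASN2 (-0.84).

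In gpa2 deletion cells moved to SLAM, both genes that lead from homoserine to threonine, the aspartate kinase gene and ASN2 fell. ASN2 fell 6.84-fold (log2 -2.77, SE 0.65, adjusted p = 0.00799), from 11.09 ± 0.42 (SD, n = 3) to 8.31 ± 0.37. THR1 fell 3.35-fold (log2 -1.74, SE 0.19, adjusted p = 0.000243), from 11.21 ± 0.22 to 9.47 ± 0.15. THR4 fell 3.01-fold (log2 -1.59, SE 0.43, adjusted p = 0.0166), and HOM3 fell 2.28-fold (log2 -1.19, SE 0.40, adjusted p = 0.045). Thus 4 of 8 genes were called lower and none higher, where 14.8% of all genes were called lower and 13.4% higher (28.1% together) in this comparison. Their median log2 difference was -0.98, and that of all genes 0.01.

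The other genes of the pathway did not pass in deletion cells. HOM2 stood at -0.78 (SE 0.30, adjusted p = 0.0711) with groups that did not overlap, as was true of ASN2, THR1 and THR4 as well. Groups separated in this direction in 21.7% of all genes. ASN1 stood at -0.60 (SE 0.28, adjusted p = 0.132). The genes at the entry and in the middle of the pathway moved least, AAT2 at -0.27 (95% interval -0.90 to 0.36) and HOM6 at -0.21 (-0.66 to 0.25).

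Calls in deletion cells held to different degrees when arrays were left out. ASN2 and THR1 passed with any 1 of the 12 arrays removed. THR4 lost the call without deletion YPM replicate 2, SLAM replicate 1 or SLAM replicate 3, at adjusted p of up to 0.0758. HOM3 kept it in only 4 of 12 cases, its adjusted p ranging from 0.00574 to 0.184. The arrays without which HOM3 lost the call include wild-type arrays, which do not enter its difference in deletion cells. Deletion YPM replicate 3 was the lowest array of its group in 7 of the 8 genes, HOM6 being the exception, and the lowest in 39.1% of all genes. Without it HOM3 stood at -1.65 (adjusted p = 0.00574) and ASN1 passed at -0.88 (adjusted p = 0.0283). Leaving out the lowest YPM array deepens such falls in any case. Without this array and wild-type SLAM replicate 2 together, 6 of the 8 genes passed in deletion cells and 5 in wild-type cells, all lower, while 999 and 835 of all 5656 genes were called lower, against 835 and 415 with every array. AAT2 and HOM6 passed in neither strain.

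**Figure D3:**
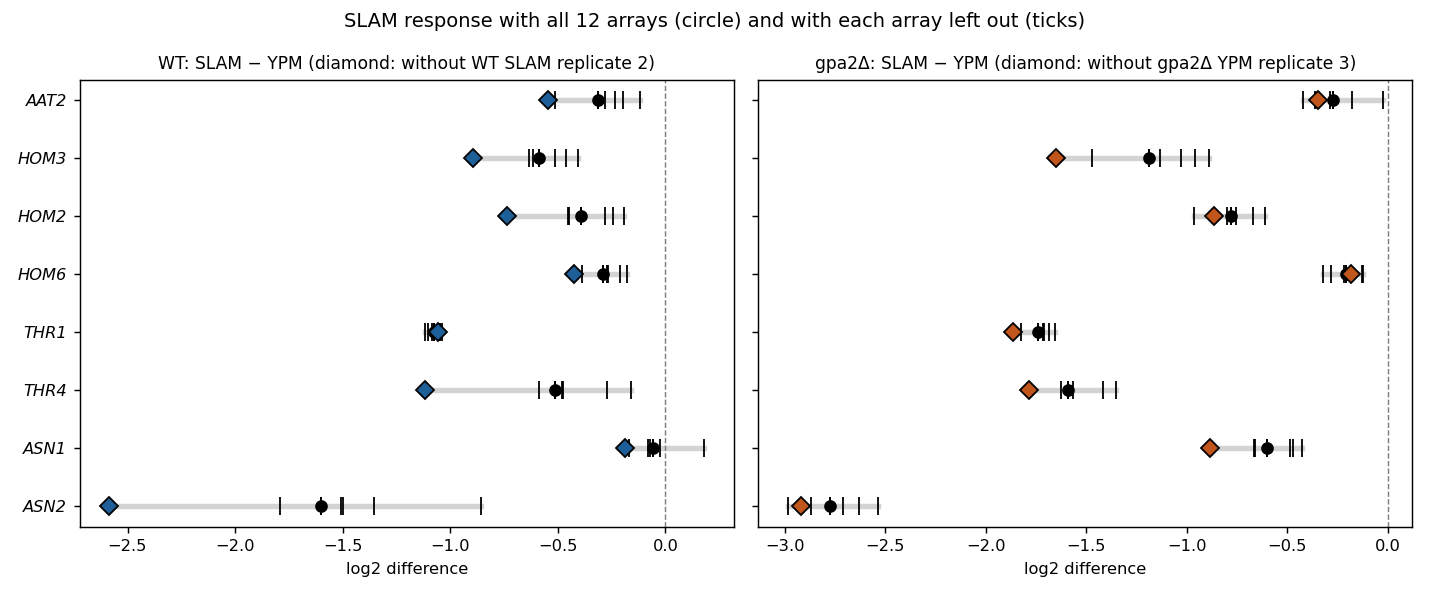
Log2 difference of SLAM against YPM (horizontal axes) for the 8 genes in wild-type (left) and gpa2 deletion cells (right). It is shown with all 12 arrays (circle) and with each array left out (ticks, range in grey). The diamond marks the difference without the array that stood apart in that strain. THR1 hardly moves in wild-type cells, while ASN2 goes from -1.60 to -2.58 without SLAM replicate 2.

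In YPM the strains were not distinguished by any gene of the pathway. All 8 deletion means were below the wild-type means, by 0.03 (AAT2) to 0.55 (ASN2) on the log2 scale. Their median log2 difference was -0.22, and that of all genes was -0.07. Deletion YPM replicate 3, the lowest array of its group in 7 of the 8 genes, enters these means. Each group overlapped its counterpart, while 13.2% of all genes had a deletion group wholly below the wild type. The limma test called 0 of the 8 genes and 0.0177% of all genes, which is GPA2 alone. An unadjusted p under 0.05 was found in 0 of the 8 genes and in 3.89% of all genes. For THR1 the difference was -0.13, with a 95% interval of -0.53 to 0.27. That of HOM3 was -0.47 (-1.35 to 0.40), and it was -0.01 without deletion YPM replicate 3.

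In SLAM, THR1 was called lower in gpa2 deletion than in wild-type cells, but 15 of 21 alternative settings lost the call. The means were 9.47 ± 0.15 and 10.27 ± 0.07 (SD, n = 3), a 1.74-fold difference (log2 -0.80, SE 0.19, adjusted p = 0.0455). This was the 1 gene of 8 called lower, against 1.73% of all genes called lower and 1.08% called higher (2.81% together). The groups also did not overlap in ASN1 (log2 -0.90, SE 0.28, adjusted p = 0.0846), THR4 (-1.33, SE 0.43, adjusted p = 0.0922) and HOM3 (-1.07, SE 0.40, adjusted p = 0.136). Separation in this direction, in 4 of the 8 genes here, was found in 10.6% of all genes.

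ASN2 had the largest estimate between strains in SLAM, -1.72 (SE 0.65, adjusted p = 0.138), over groups that overlapped. It was -0.74 without wild-type SLAM replicate 2, and THR4 then stood at -0.73. HOM2 (-0.55), HOM6 (-0.10) and AAT2 (0.02) overlapped between strains. The call of THR1 held in only 2 of 12 cases with an array left out, at adjusted p of up to 0.142, although its difference was still -0.81 without wild-type SLAM replicate 2 (adjusted p = 0.0895). The arrays without which THR1 lost the call include YPM arrays of both strains, which do not enter this difference.

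The titles number the arrays from 2 to 12 for the deletion strain and from 14 to 24 for the wild type. Within each strain YPM and SLAM arrays alternate in this numbering, and the titles do not say what the number stands for. If it marks an order of handling, that order and the strain cannot be told apart.

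**Figure D4:**
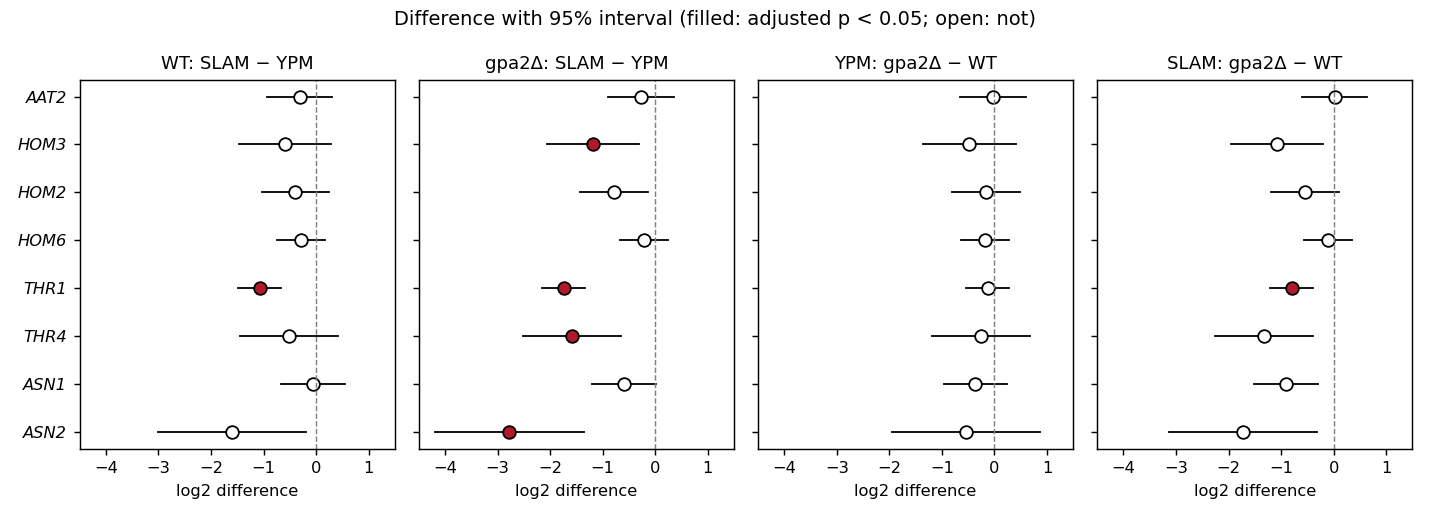
Log2 differences of the 8 genes (rows) with their 95% intervals in 4 comparisons (panels), filled where adjusted p is under 0.05. THR1 is filled in 3 panels, ASN2, THR4 and HOM3 only for deletion cells in SLAM against YPM, and no gene is filled between the strains in YPM.

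The test of whether the strains responded differently to SLAM called none of the 8 genes. The difference of the responses was largest for ASN2 (-1.18, SE 0.92) and THR4 (-1.07, SE 0.61), and adjusted p was at least 0.980 for all 8. THR1 was the 1 gene of 8 with an unadjusted p under 0.05 (log2 -0.67, SE 0.26, limma adjusted p = 0.98). Such a p was found in 4.03% of all genes, and the limma test called 0% after adjustment. The 95% intervals ran from -3.17 to 0.82 for ASN2 and from -0.56 to 0.73 for HOM6. Hence the larger number of calls in deletion cells was not shown to be a difference between the strains. For ASN2 the SD was 1.78 in wild-type and 0.37 in deletion SLAM, and for THR4 it was 1.05 and 0.38, whereas for THR1 it was 0.07 and 0.15.

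**Figure D5:**
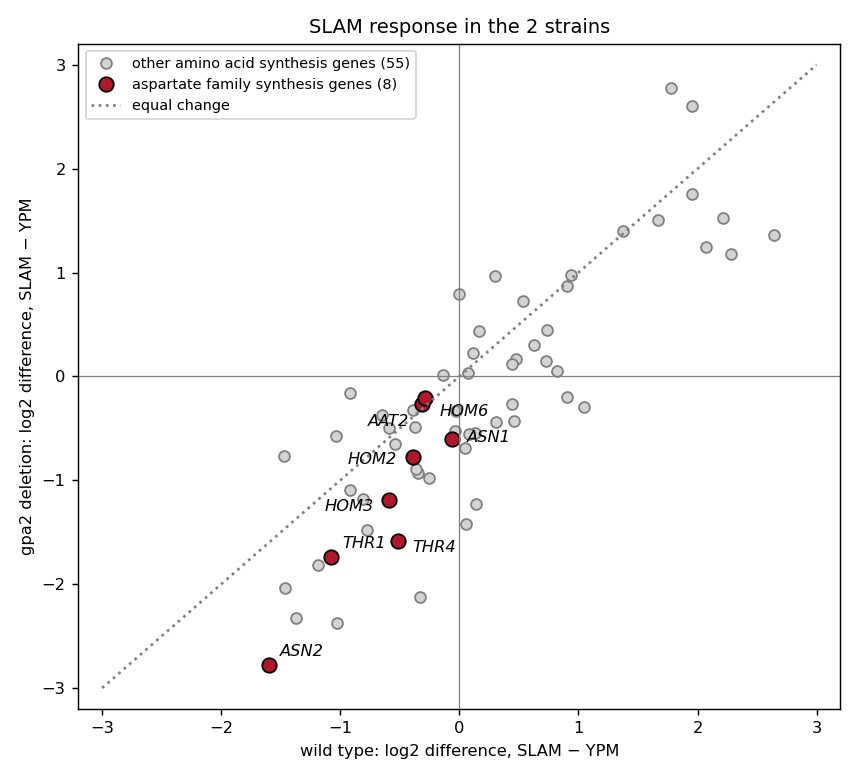
Log2 difference of SLAM against YPM in wild-type (horizontal axis) and gpa2 deletion cells (vertical axis) for the 8 aspartate family genes (red) and 55 other amino acid synthesis genes (grey), with a dotted line of equal change. The 8 genes all lie where both differences are below 0, while the other genes spread to both sides.

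Genes that supply or use aspartate did not move as one group. Of 9 measured, 1 rose and none fell in wild-type SLAM, and 3 fell and none rose in deletion SLAM. Over all genes, 5.23% were called higher and 7.34% lower in wild-type cells, and 13.4% and 14.8% in deletion cells. ARG1, whose enzyme joins aspartate to citrulline, rose by a log2 of 2.64 in wild-type cells (SE 0.78, adjusted p = 0.046), a call that held in 5 of 12 cases with an array left out. The purine synthesis genes ADE1 (log2 -1.35, SE 0.35, adjusted p = 0.0143) and ADE12 (-1.17, SE 0.26, adjusted p = 0.00654), whose enzymes also take up aspartate, fell in deletion cells. DPS1, the cytosolic aspartyl-tRNA synthetase gene, fell by 1.13 there (SE 0.28, adjusted p = 0.0117). The list's median was 0.02 in wild-type and 0.10 in deletion cells.

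Genes for the use and uptake of asparagine and threonine were called lower or not at all. Their list also holds MET2, the homoserine acetyltransferase gene of the methionine branch, which enters the counts and medians. MET2 stood at log2 2.14 in wild-type and 1.67 in deletion cells and was not called. Of 10 measured, 2 fell in wild-type SLAM and 4 in deletion SLAM, and none rose, with medians of -0.95 and -1.11. The shares of all genes called lower were 7.34% and 14.8%. ASP1, the cytosolic asparaginase gene, fell by 1.53 on the log2 scale in wild-type cells (SE 0.30, adjusted p = 0.0131) and by 2.15 in deletion cells (adjusted p = 0.000754). It was also lower in the deletion strain in SLAM (log2 -1.26, adjusted p = 0.048), a call that held in 2 of 12 cases with an array left out.

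GNP1, a high-affinity glutamine permease that also carries asparagine and threonine, fell in both strains (log2 -2.40 in wild-type and -2.69 in deletion cells, SE 0.44). The asparaginyl-tRNA synthetase gene DED81 (log2 -1.73, SE 0.34) and the threonyl-tRNA synthetase gene THS1 (-1.66, SE 0.36) fell in deletion cells. Without wild-type SLAM replicate 2 the wild-type count was 4 of 10, where 767 of all 5656 genes were called lower. ASP3-1 to ASP3-4, the cell-wall asparaginase genes, were not analysed here.

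Among genes of general amino acid control, 2 of 6 measured fell in each strain and none rose. Of all genes, 7.34% were called lower in wild-type and 14.8% in deletion cells. GCN3, a subunit of the translation factor eIF2B, fell by 0.89 on the log2 scale in wild-type cells (SE 0.27, adjusted p = 0.0487) and by 1.57 in deletion cells (adjusted p = 0.00186). GCN20, which acts with the kinase Gcn2, fell by 0.73 (SE 0.20, adjusted p = 0.0367) and 0.82 (adjusted p = 0.00991). The wild-type calls held in 3 and 6 of 12 cases with an array left out. GCN4, singled out after its values were seen, stood at 0.27 in wild-type and 0.25 in deletion cells (SE 0.19, adjusted p = 0.357 and 0.345). Gcn4 is known to be regulated mainly in its translation, which arrays do not measure.

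Other amino acid synthesis genes went both ways. Of 55 measured, 9 were called higher and 5 lower in wild-type SLAM (median 0.12), and 7 higher and 12 lower in deletion SLAM (median -0.30). Over all genes, 5.23% were called higher and 7.34% lower in wild-type cells, and 13.4% and 14.8% in deletion cells. The largest wild-type changes in the list were rises of ARG1, LYS1 (log2 2.28, SE 0.58), ARG4 (2.22, SE 0.41) and ARG3 (2.07, SE 0.60). With an array left out, these calls held in 5 (ARG1), 9 (LYS1), 11 (ARG4) and 5 (ARG3) of 12 cases. Among them only ARG4 was also called in deletion cells. The largest changes in deletion cells were rises of LEU1 (2.78, SE 0.35) and GLT1 (2.60, SE 0.60) and falls of PRO1 (-2.38, SE 0.23) and ARO4 (-2.33, SE 0.29). Between strains in SLAM, 4 of the 55 were lower in the deletion strain, namely ARO7 (-1.94, SE 0.39), GDH1 (-1.79, SE 0.43), PRO1 (-1.48, SE 0.23) and HIS7 (-1.29, SE 0.28). In that comparison 1.73% of all genes were called lower. With an array left out, the call of PRO1 held in 11 of 12 cases, that of ARO7 in 5, that of HIS7 in 3 and that of GDH1 in 2. Without both arrays that stood apart, 13 rose and 8 fell in wild-type cells, 7 rose and 18 fell in deletion cells, and 1 was lower between strains. Of all 5656 genes, 690 were then called higher and 835 lower in wild-type cells. In deletion cells these numbers were 984 and 999, and between strains in SLAM 38 genes were called lower. In deletion cells, 4 of the 8 aspartate family genes and 12 of these 55 were called lower, and 0 and 7 higher; the lists were not tested against each other.

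The genes with the most similar profiles were sought over all 12 arrays, as the smallest root mean square difference between log2 values centred on each gene's mean. For ASN2 these were SRO9, an RNA-binding protein gene (0.36), and DYS1, the deoxyhypusine synthase gene (0.37), where the median gene differed by 1.51. THR4 was nearest to the glutaredoxin gene GRX3 (0.19) and to SUI2 (0.22), which encodes the alpha subunit of eIF2. THR1 was nearest to EMW1 (0.19) and YHR020W, a prolyl-tRNA synthetase gene (0.21). HOM3 was nearest to the mitochondrial iron carrier gene MRS3 (0.20) and the prefoldin gene GIM3 (0.23).

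For the less variable genes the nearest were RTT106 (0.18) and SFH1 (0.19) for HOM2, HST4 (0.18) and the mitochondrial oxaloacetate carrier gene OAC1 (0.21) for ASN1, YMR099C (0.11) and YAP6 (0.13) for HOM6, and GAL80 (0.14) and YOL057W (0.15) for AAT2. The members were not each other's closest neighbours. THR4 was the nearest member to HOM3, at a difference of 0.35 and rank 38 among 5655 genes, and HOM3 the nearest member to THR4, at rank 54. For the asparagine synthetase genes the nearest member was THR4 to ASN2 (rank 95) and HOM2 to ASN1 (rank 313). All these profiles share the same 12 arrays, so a trait of 1 array enters each of them.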

How the data were processed

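The authors deposited log2 expression values for 9335 probe sets on 12 arrays. GCOS 1.2, MAS5 and RMA are named in the submitters' processing notes, with no statement of their roles. Values were taken as deposited, with no missing value. Control probe sets (60) and probe sets with several (328) or no gene symbols (2443) were left out, and the probe set with the highest mean was kept per gene, which left 5656 genes.

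The 4 group means were estimated together from all 12 arrays in limma 3.58.1 (R 4.3.3; 8 residual and 4.11 prior degrees of freedom). Tests were two-sided, with Benjamini-Hochberg adjustment across the 5656 genes in each of 5 comparisons, and a gene passed at an adjusted p below 0.05. The code was tested on simulated data. Groups were read from the labels; 3 arrays a group limit the precision. Errors are standard errors unless marked SD.

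Genes, lists and the naming rule were chosen with earlier results of these data known. All 8 pathway genes were named in each comparison, with up to 4 passing genes per neighbouring list and comparison and the 2 nearest profiles per gene. No gene coordinates or sequences were used, since the deposited values name no genome build. Alternatives were a floor, quantile normalization, median centring, leaving out dim genes, all probe sets, mean probe sets, only the arrays compared, a variance trend and each array left out; leaving out both arrays that stood apart was added after seeing the data.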

Additional observations from a re-analysis of the deposited data

How the results depend on the processing

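Over 20 planned settings and 1 added after seeing the data, 761 of the values for single genes kept their direction and their side of the threshold, 31 lost a call, 13 gained one and 22 turned sign, none of the last being called. THR1 in both strains and ASN2 in deletion cells passed in all 21 settings. The number of pathway genes called in wild-type SLAM ranged from 1 to 4 with 1 array left out (4 without SLAM replicate 2) and was 5 without both arrays that stood apart. Over all genes, the wild-type calls ran from 1.1% to 25% with 1 array left out, and numbered 1525 of 5656 without both. In deletion SLAM the number of pathway genes called ranged from 2 to 5 with 1 array left out. Calls over all genes in that comparison ran from 16.7% (without deletion YPM replicate 2) to 34.6% (without wild-type SLAM replicate 2). HOM3 there also lost its call under a floor, quantile normalization, median centring, all probe sets and only the arrays compared, at adjusted p between 0.0566 and 0.0872. Between strains in SLAM the number ranged from 0 to 3 with 1 array left out (ASN2, THR1 and THR4 without wild-type SLAM replicate 3, where the calls over all genes went from 2.81% to 6.81%). It was 0 under median centring, all probe sets, only the arrays compared, a variance trend with robust moderation, and without both arrays. THR1 then had an adjusted p between 0.0509 and 0.234. Over all genes, calls in those settings were 3.16%, 0.442%, 0.0177%, 2.25% and 1.27% in turn. With 1 array left out they ran from 0.0707% to 6.81%. In YPM and for the difference of responses the number of pathway genes called was 0 in every setting run. Calls over all genes were at most 0.0354% there. The cause of these changes was not tested. Sign turned under quantile normalization for AAT2 between strains in SLAM (-0.024) and for the difference of responses of AAT2 (-0.023) and HOM6 (-0.038). Without both arrays it turned for AAT2 in YPM (0.050) and HOM6 between strains in SLAM (0.034). With 1 array left out, ASN1 in wild-type SLAM ranged from -0.19 to 0.18, AAT2 between strains from -0.22 to 0.090 in YPM and from -0.18 to 0.26 in SLAM, and HOM6 between strains in SLAM from -0.21 to 0.034. The difference of responses ranged from -0.15 to 0.29 for AAT2 and from -0.032 to 0.22 for HOM6. Leaving out the dimmest genes kept 3771 genes and 7 of the 8 genes, and ASN1 then had no value. No paired analysis was run, because the labels carry no replicate number shared between groups. Whether arrays with neighbouring title numbers belong together is not stated. With 3 arrays a group, the median standard error of a difference was 0.29 over all genes.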
